A study of Mus musculus with 6 samples.

Results

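The genes described here are 10 regulators of energy metabolism: Ppargc1a, Ppargc1b, Ppara, Ppard, Esrra, Esrrb, Esrrg, Nrf1, Tfam and Tfb2m. They were taken by symbol from a table of read counts per gene that held 25031 entries, and each symbol matched 1 entry. The samples were kidneys of wild-type male C57BL/6 mice, an inbred laboratory strain, aged 7 to 8 weeks. In every animal both kidneys were made ischemic for 23 minutes at a core temperature of 37 °C and then reperfused, a model of acute kidney injury. After this injury, 3 kidney libraries came from mice given (+)CePPy by vein at 5 mg/kg, and 3 came from mice given the same volume of saline (vehicle). (+)CePPy is a positively charged nanoparticle of polypyrrole doped with cerium. The sources used here do not give the time of collection after injury, and uninjured kidneys were not analysed here.

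PGC-1alpha (Ppargc1a) and PGC-1beta (Ppargc1b) are coactivators: they bind no DNA themselves but are recruited by transcription factors and raise their output. Their partners include the fatty acid receptors PPARalpha (Ppara) and PPARdelta (Ppard), the estrogen-related receptors (Esrra, Esrrb and Esrrg), which have no known natural hormone, and nuclear respiratory factor 1 (Nrf1). Together these switch on fatty acid oxidation and the nuclear genes of the respiratory chain, while TFAM and TFB2M act inside mitochondria, where they start transcription of mitochondrial DNA. The tubule of the kidney, and its proximal part above all, lives on fatty acid oxidation, and Ppargc1a is known to fall in mouse models of acute kidney injury.

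The 6 libraries held between 29762157 and 37415213 counts, and all 10 regulators were among the 15416 genes that passed the filter on low counts. Levels are given as CPM, counts per 1e6 counts of the scaled library. The marker genes of the kidney tubule were abundant in all 6 libraries, with a summed level of the proximal tubule markers of at least 4918 CPM. Along the first principal component, which held 38.5% of the variance, CePPy 1 lay farthest from the vehicle libraries and CePPy 2 nearest. Nothing in the labels ties each library to an animal of its own, so p-values measure the spread between libraries, which may be technical.

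Setting CePPy kidneys against vehicle kidneys asks which transcripts of the injured kidney the nanoparticles altered. Of the 10 regulators, Ppargc1a and Esrrb had values in every CePPy library above those in every vehicle library, at 1.47 and 2.27 times the vehicle level. The other 8 overlapped between the groups. By the quasi-likelihood test of edgeR, 0 of the 10 passed at a Benjamini-Hochberg adjusted p under 0.05, a call that 0.00649% of all genes reached. At an unadjusted p under 0.05 that test took 2 of the 10, Ppargc1a and Esrrb, both higher, against 19.0% of all genes, of which 9.65% were higher and 9.37% lower. The groups did not overlap for 26.3% of all genes, 12.3% higher and 14.0% lower. In either direction 2 of 10 was thus near the background, and the count is no result about the regulators as a set. DESeq2 called both genes higher, beside 3.27% of all genes called higher and 3.08% lower, or 6.36% in all. Without CePPy 2, edgeR called the same 2, beside 5.17% of all genes, or 2.98% higher. Limma-voom called 0 of the 10 with or without sample weights.

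**Figure D1:**
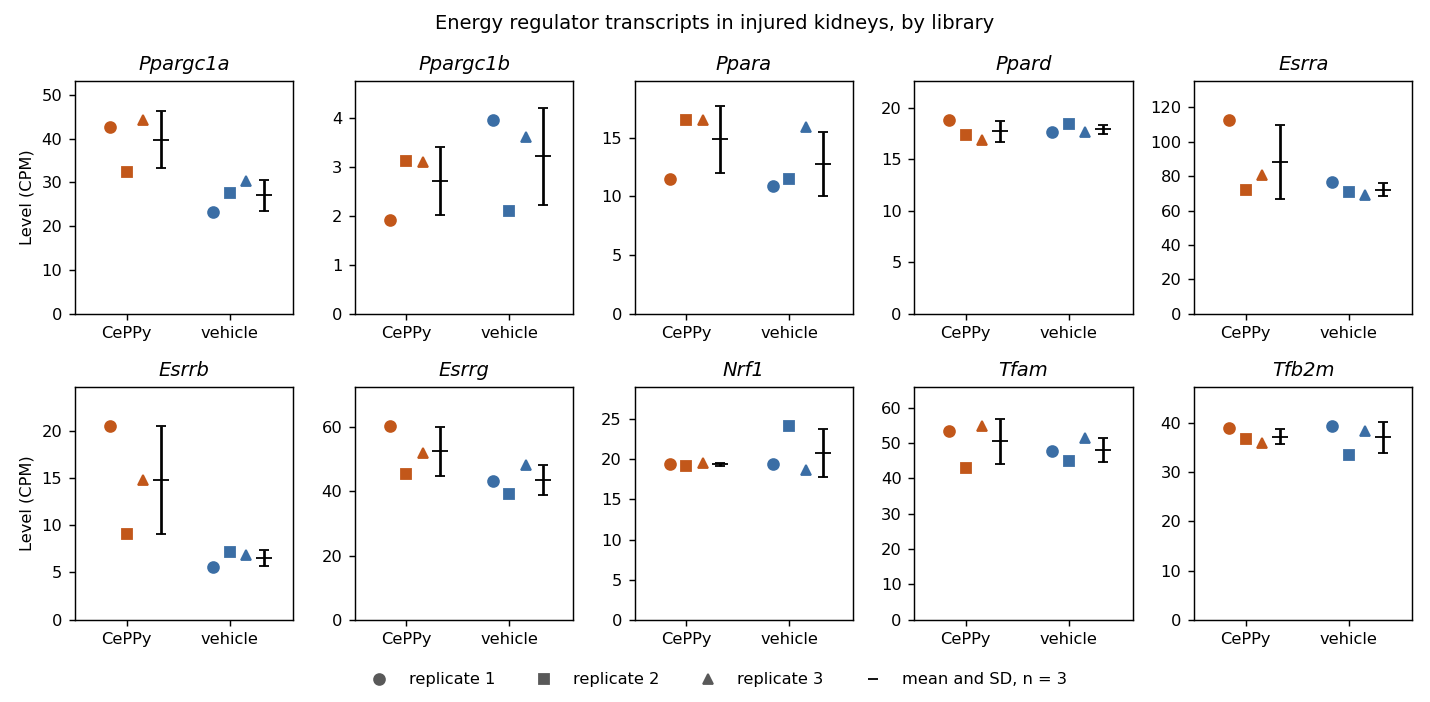
Level of each of the 10 regulators in CPM (vertical axes, each from 0) in the 3 CePPy and 3 vehicle kidney libraries; each symbol is 1 library and the bar beside each group is its mean and SD. Ppargc1a and Esrrb are the panels in which all CePPy points lie above all vehicle points.

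Ppargc1a (ENSMUSG00000029167; chromosome 5, 51454250 to 51567726, minus strand, GRCm38) encodes PGC-1alpha, the coactivator best known for driving mitochondrial biogenesis. It measured 42.6, 32.4 and 44.3 CPM in CePPy libraries 1, 2 and 3, against 23.2, 27.7 and 30.3 CPM in the vehicle libraries. The lowest CePPy library thus lay just above the highest vehicle library, and CePPy 1 and 3 lay well clear of all 3 vehicle libraries. Means were 39.8 ± 6.46 CPM in CePPy and 27.1 ± 3.58 CPM in vehicle (SD, n = 3 each). The log2 fold change was 0.55 (SE 0.15; adjusted p by edgeR 0.131), with a 95% interval of the fold from 1.16 to 1.86. With DESeq2 the adjusted p was 0.0219. Without CePPy 2 it passed with edgeR (log2 fold change 0.68, adjusted p = 0.0332), and without vehicle 1 the edgeR adjusted p was 0.358.

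Esrrb (ENSMUSG00000021255; chromosome 12, 86361117 to 86521628, plus strand) encodes ERRbeta, an orphan nuclear receptor best known from mouse embryonic stem cells. It measured 20.5, 9.09 and 14.7 CPM in CePPy libraries 1, 2 and 3, against 5.54, 7.18 and 6.80 CPM in the vehicle libraries. The 3 CePPy libraries were spread widely, with CePPy 2 close to vehicle and CePPy 1 far above it. Means were 14.8 ± 5.69 CPM in CePPy and 6.51 ± 0.859 CPM in vehicle (SD, n = 3 each), and the counts behind them were between 199 and 728 reads. The log2 fold change was 1.18 (SE 0.28; adjusted p by edgeR 0.117), with a 95% interval of the fold from 1.45 to 3.55. With DESeq2 the adjusted p was 0.00231, and with edgeR it was 0.0172 without CePPy 2 and 0.344 without vehicle 1. Without CePPy 1, the highest library, the log2 fold change was 0.87 (adjusted p by edgeR 0.143).

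The promoter windows of these genes are shown because Ppargc1a and Esrrb varied together across the 6 libraries (Pearson r = 0.94 on log2 CPM, a description over libraries of 2 groups). The sequences are from RefSeq, build GRCm38.p6, and run 5′ to 3′ on the gene's own strand, from 250 bases before to 50 bases after the annotated start. Capitals mark TGACG or its reverse complement CGTCA, the core of the cAMP response element to which CREB, a known activator of Ppargc1a, binds.
Ppargc1a, chr5:51567676-51567975, minus strand: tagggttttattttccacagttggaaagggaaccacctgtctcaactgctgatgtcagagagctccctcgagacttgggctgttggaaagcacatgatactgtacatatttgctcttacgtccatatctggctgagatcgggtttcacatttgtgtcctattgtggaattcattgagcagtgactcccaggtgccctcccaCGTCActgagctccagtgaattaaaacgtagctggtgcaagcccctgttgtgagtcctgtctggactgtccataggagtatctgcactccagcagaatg
Esrrb, chr12:86360867-86361166, plus strand: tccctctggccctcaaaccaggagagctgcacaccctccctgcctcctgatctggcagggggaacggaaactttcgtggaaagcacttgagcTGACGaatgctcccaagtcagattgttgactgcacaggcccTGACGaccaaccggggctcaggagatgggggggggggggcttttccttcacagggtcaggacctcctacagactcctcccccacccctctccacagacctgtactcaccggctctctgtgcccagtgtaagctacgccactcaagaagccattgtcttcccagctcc
The Ppargc1a window holds the letters at 1 place, starting 49 bases before the start, and the Esrrb window at 2 places, starting 158 and 117 bases before it. The same letters are in the windows of Ppara, starting 222 bases before the start, and Ppard, starting 4 bases before it, and both of these genes overlapped between the groups. Of all 32851 promoter windows of this length, 20.8% hold TGACG on either strand, and of the 14374 windows of genes tested here 28.8% do. A second annotated start of Esrrb has a window without these letters. The match describes letters in a window and is no evidence of binding.

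Esrra (ENSMUSG00000024955; chromosome 19, 6910977 to 6921813, minus strand) encodes ERRalpha, the estrogen-related receptor that works most closely with PGC-1alpha on respiratory chain genes. It measured 112.8, 72.0 and 80.5 CPM in CePPy libraries 1, 2 and 3, against 76.7, 70.7 and 69.2 CPM in the vehicle libraries. CePPy 1 and 3 lay above all 3 vehicle libraries, CePPy 1 by far more, while CePPy 2 lay inside the vehicle range. The log2 fold change was 0.29 (SE 0.16; adjusted p by edgeR 0.353), with a 95% interval of the fold from 0.951 to 1.58. Without CePPy 1 it was 0.08. The exons of Esrra overlap those of Trmt112 on the opposite strand, and the counting is not stated to use strand, so reads of the pair may be mixed. Trmt112, which encodes a partner of methyltransferases, measured 35.4, 35.7 and 26.4 CPM in CePPy and 38.7, 39.6 and 40.3 CPM in vehicle.

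Esrrg (ENSMUSG00000026610; chromosome 1, 187608791 to 188214885, plus strand), which encodes ERRgamma, a receptor of oxidative tissues such as heart and kidney, measured 60.4, 45.3 and 51.8 CPM in CePPy and 43.2, 39.2 and 48.3 CPM in vehicle. CePPy 2 fell within the vehicle range and CePPy 1 and 3 above it. The log2 fold change was 0.27 (SE 0.12; adjusted p by edgeR 0.287), with a 95% interval of the fold from 0.988 to 1.47. Without CePPy 1 it was 0.16. The ratio of Esrrg to Esrra within a library, per kb of exon, was 0.378, 0.445 and 0.455 in CePPy and 0.398, 0.392 and 0.493 in vehicle. On the log2 scale these ratios averaged -1.24 ± 0.14 in CePPy and -1.23 ± 0.19 in vehicle (SD, n = 3 each; two-sided exact permutation p = 1.0, where 3 against 3 cannot give less than 0.1).

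Ppargc1b, for the related coactivator PGC-1beta, was the scarcest of the 10 and the one with the least certain value. It measured 1.91, 3.11 and 3.10 CPM in CePPy and 3.95, 2.09 and 3.59 CPM in vehicle, from 68 to 142 reads per library. The groups overlapped, with CePPy 1 and vehicle 2 both low. The log2 fold change was -0.25 (SE 0.32; adjusted p by edgeR 0.701), and the 95% interval of the fold ran from 0.507 to 1.40. It was -0.047 without CePPy 1, -0.071 without vehicle 1, -0.16 without vehicle 3 and -0.48 without vehicle 2. Within a library and per kb of exon, Ppargc1a exceeded Ppargc1b 13.5, 6.30 and 8.65 times in CePPy and 3.55, 8.02 and 5.10 times in vehicle. The log2 ratio averaged 3.17 ± 0.55 in CePPy and 2.39 ± 0.59 in vehicle (SD, n = 3 each), a difference of 0.78 between groups that overlapped (two-sided exact permutation p = 0.2). The difference was 0.49 without CePPy 1, 0.50 without vehicle 1 and 1.08 without vehicle 2.

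The groups overlapped for both PPAR genes. Ppara (chromosome 15, 85734983 to 85802819, plus strand), for the receptor that fatty acids and fibrates activate, measured 11.5, 16.5 and 16.5 CPM in CePPy and 10.9, 11.5 and 15.9 CPM in vehicle. Each group held low and high libraries, and CePPy 1, high for Ppargc1a, was among the low ones. The log2 fold change of Ppara was 0.22 (SE 0.20; adjusted p by edgeR 0.572), with a 95% interval of the fold from 0.849 to 1.60. Leaving out 1 library at a time gave values from 0.12 (without vehicle 1) to 0.41 (without vehicle 3). Ppard (chromosome 17, 28232700 to 28301474, plus strand), for the broadly expressed PPARdelta, measured 18.9, 17.4 and 16.9 CPM in CePPy and 17.7, 18.4 and 17.7 CPM in vehicle. Its log2 fold change was -0.017 (SE 0.09; adjusted p by edgeR 0.942), with a 95% interval of the fold from 0.849 to 1.150.

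**Figure D2:**
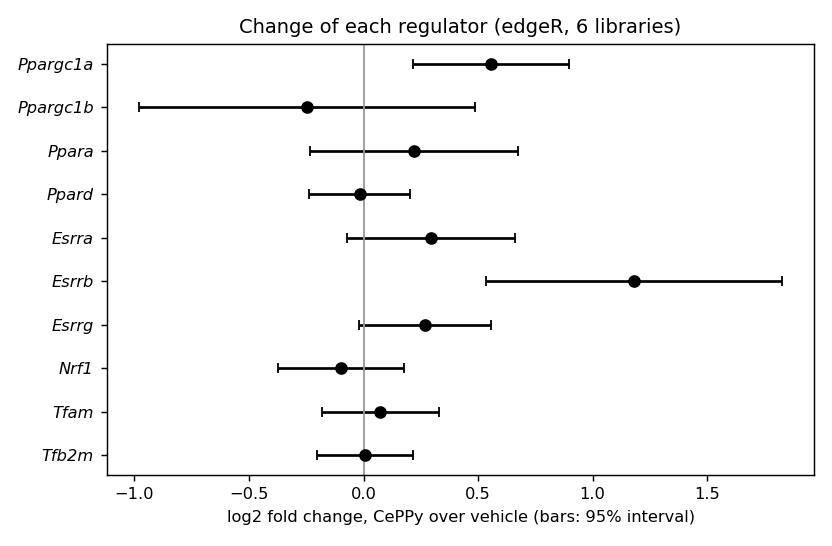
Log2 fold change of CePPy over vehicle for each regulator (horizontal axis) from edgeR on 6 libraries; points are estimates and bars are 95% intervals. The intervals of Ppargc1a and Esrrb lie above 0 before adjustment for the number of genes tested, and the other 8 include 0.

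Nrf1, Tfam and Tfb2m carry the program into mitochondria, and their log2 fold changes lay between -0.10 and 0.073. Nrf1 (chromosome 6, 30047988 to 30153458, plus strand), for the factor that activates nuclear respiratory genes, measured 19.4, 19.1 and 19.6 CPM in CePPy and 19.4, 24.2 and 18.7 CPM in vehicle. Vehicle 2 stood above the other 5 libraries, which lay close together (log2 fold change -0.10 with an SE of 0.12; adjusted p by edgeR 0.678). The 95% interval of the fold ran from 0.772 to 1.13, and without vehicle 2 the log2 fold change was 0.025. Tfam (chromosome 10, 71225464 to 71238280, minus strand), for the protein that packs mitochondrial DNA and starts its transcription, measured 53.5, 43.0 and 54.8 CPM in CePPy and 47.6, 44.8 and 51.5 CPM in vehicle. The lowest Tfam value of all 6 libraries was that of CePPy 2 and the highest that of CePPy 3 (log2 fold change 0.073 with an SE of 0.11; adjusted p by edgeR 0.752), with a 95% interval of the fold from 0.882 to 1.25. Tfb2m (chromosome 1, 179528055 to 179546267, minus strand), for a transcription factor of the mitochondrial RNA polymerase, measured 38.8, 36.7 and 35.9 CPM in CePPy and 39.3, 33.4 and 38.3 CPM in vehicle. Its groups overlapped throughout (log2 fold change 0.0054 with an SE of 0.09; adjusted p by edgeR 0.983), and the 95% interval of the fold ran from 0.868 to 1.16.

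Esrra and Tfb2m are shown for a motif they share; across the 6 libraries their levels had a Pearson r of 0.40. Capitals mark GCATGCGC, the core of the element that NRF1 binds, in the same kind of window.
Esrra, chr19:6921759-6922058, minus strand: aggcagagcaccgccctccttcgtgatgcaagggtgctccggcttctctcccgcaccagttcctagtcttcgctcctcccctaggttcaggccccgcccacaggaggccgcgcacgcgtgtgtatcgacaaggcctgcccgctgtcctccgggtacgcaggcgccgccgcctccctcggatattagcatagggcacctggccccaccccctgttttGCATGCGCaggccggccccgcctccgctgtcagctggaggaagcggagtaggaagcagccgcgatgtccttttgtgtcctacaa
Tfb2m, chr1:179546227-179546526, minus strand: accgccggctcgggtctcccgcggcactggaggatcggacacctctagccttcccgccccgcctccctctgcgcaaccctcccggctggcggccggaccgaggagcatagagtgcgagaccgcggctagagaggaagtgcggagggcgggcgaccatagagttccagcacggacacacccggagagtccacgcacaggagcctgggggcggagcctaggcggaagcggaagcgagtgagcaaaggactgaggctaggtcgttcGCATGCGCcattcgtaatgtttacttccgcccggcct
The letters start 34 bases before the start of Esrra and at base 14 after that of Tfb2m, and 2.71% of all windows hold them on either strand, or 4.58% of the windows of genes tested. The Ppara window holds them as well. The motif was chosen after the windows were seen, so its share does not show how unusual a match is. The element of the estrogen-related receptors, searched as AAGGTCA or TGACCTT, was in none of the 14 windows that RefSeq gives for 9 of the regulators, against 4.72% of all windows and 3.44% of those of genes tested.

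Compared per kb of exon, the regulators spanned a wide range of levels, and Esrra led in both groups at 20.2 ± 4.90 CPM per kb in CePPy and 16.5 ± 0.901 in vehicle (SD, n = 3 each). In vehicle the order below it was Tfb2m, Tfam, Esrrg, Ppargc1a, Ppara, Ppard, Nrf1, Esrrb and Ppargc1b. Among these neighbours, Ppargc1a and Ppara overlapped between libraries, and so did Esrrb and Ppargc1b. Ppard and Nrf1 came within rounding of each other, with a lowest Ppard library of 2.35 and a highest Nrf1 library of 2.35 CPM per kb. In CePPy, Esrrb took rank 7, against rank 9 in vehicle, with libraries from 1.504 to 3.39 CPM per kb that overlapped those of Ppara and Ppard and lay on both sides of Nrf1. Ppargc1a had 6.03 ± 0.980 CPM per kb in CePPy and 4.10 ± 0.543 in vehicle, and Ppargc1b had 0.679 ± 0.173 in CePPy and 0.805 ± 0.248 in vehicle (SD, n = 3 each). With the longest coding transcript in place of the union of exons as length, the first 4 ranks were the same in both groups, and Esrrb ranked 9 and Ppargc1b 10 in both. The different rank of Esrrb in CePPy thus depended on the length used. By transcript length Ppargc1a ranked 5 in CePPy and 7 in vehicle, and Nrf1 ranked 7 in CePPy and 5 in vehicle.

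**Figure D3:**
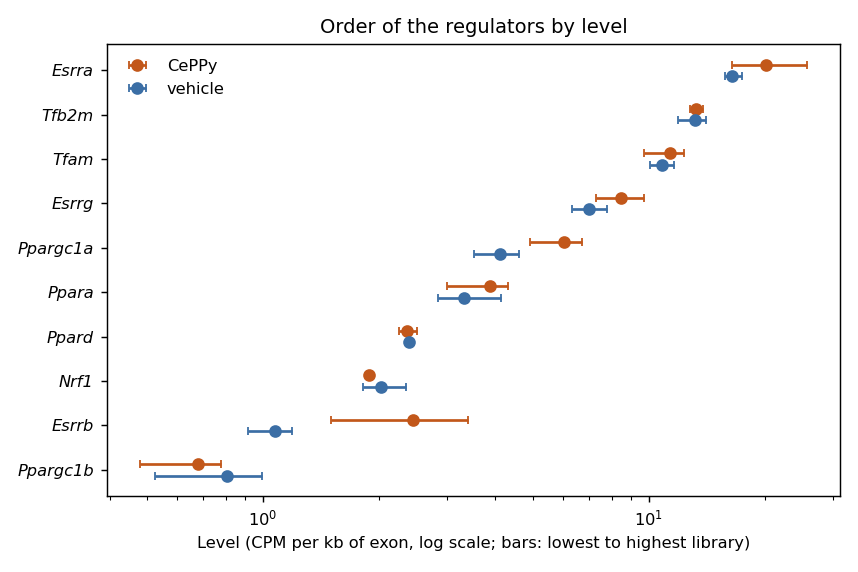
Level of each regulator per kb of exon (horizontal axis, CPM per kb, log scale); points are means of 3 libraries and bars reach from the lowest to the highest library. Esrra is at the top and Ppargc1b at the bottom in both groups; Esrrb has rank 7 in CePPy and 9 in vehicle by this length, but rank 9 in both by the longest coding transcript.

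Ppargc1a, Esrra, Esrrb and Esrrg were high in the CePPy libraries in which tubule markers were high. The mean log2 level of 12 proximal tubule markers against vehicle was 0.90, 0.06 and 0.53 in CePPy 1, 2 and 3. For 10 markers of the thick ascending limb and distal tubule it was 1.53, 0.27 and 0.86, and for 8 collecting duct markers 0.67, 0.38 and 0.63. Markers of tubular injury stood at -1.36, -0.16 and -0.38 in the same libraries. The summed levels of the proximal tubule markers lay between 5499 and 11565 CPM in CePPy and between 4918 and 5519 CPM in vehicle. Those of the thick ascending limb and distal tubule lay between 4079 and 7093 CPM in CePPy and between 3282 and 3537 CPM in vehicle, and those of the collecting duct between 454 and 571 CPM in CePPy and between 328 and 381 CPM in vehicle. The 8 injury markers summed to between 15919 and 30046 CPM in CePPy and between 26998 and 27859 CPM in vehicle, and no gene of these 4 lists was at 0 throughout. On the log2 scale against vehicle, Esrrb stood at 1.65, 0.49 and 1.18 and Ppargc1a at 0.66, 0.27 and 0.72. The part of the tubule markers in these values was not tested, and in whole kidney tissue more cells of a type and more RNA per cell cannot be told apart.

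The values of each library were also set against its own tubule markers, a step chosen after the data were seen. Less the proximal tubule level, Ppargc1a measured -0.23, 0.21 and 0.19 log2 units in CePPy and -0.21, 0.09 and 0.12 in vehicle, so the groups overlapped. Esrrb less the proximal tubule level measured 0.76, 0.43 and 0.66 in CePPy and -0.22, 0.20 and 0.02 in vehicle, without overlap. Less the thick ascending limb and distal tubule level, Esrrb measured 0.12, 0.21 and 0.32 in CePPy and -0.22, 0.13 and 0.09 in vehicle, with overlap. Less the collecting duct level the groups overlapped for both genes, as they did for Ppargc1a less the thick ascending limb and distal tubule level. Other regulators separated in this step too, all lower in CePPy. They were Ppard and Tfam less the proximal tubule level, and Ppard, Esrrg, Nrf1, Tfam and Tfb2m less the collecting duct level. Less the thick ascending limb and distal tubule level they were Ppard, Esrra, Esrrg, Nrf1, Tfam and Tfb2m. The share of all genes that separate in this way was not computed.

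**Figure D4:**
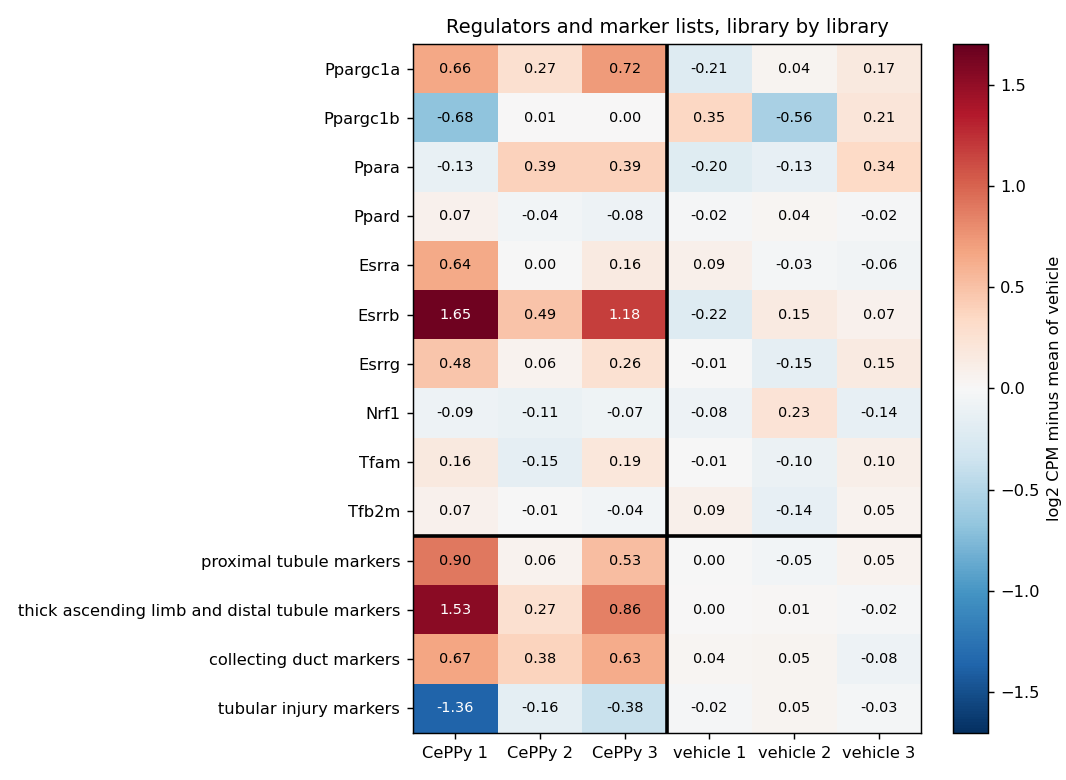
Log2 CPM minus the vehicle mean for each regulator, and the mean of the same difference over 4 marker lists, in each library (columns; CePPy left, vehicle right); color and printed number give the value. CePPy 1 has the highest Esrrb, at 1.65, together with the highest tubule markers and the lowest injury markers, at -1.36, and CePPy 2 is nearest to vehicle in these rows.

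Tissues next to the kidney also use PGC-1alpha, so their markers were read. Skeletal and heart muscle genes summed to between 0.266 and 1.13 CPM in CePPy and between 0.473 and 0.736 CPM in vehicle over 8 genes, with Myh1, Myh2 and Tnnt3 at 0. Adipocyte genes summed to between 66.0 and 82.2 CPM in CePPy and between 51.8 and 63.5 CPM in vehicle over 8 genes, most of it Fabp4, which endothelium also makes, and Lep was at 0. The fat-defining gene Adipoq measured 0, 0.718 and 1.13 CPM in CePPy and 0.251, 0.118 and 0 CPM in vehicle, and the brown fat gene Ucp1 was above 0 in CePPy 3 at 0.40 CPM and in vehicle 1 at 0.111 CPM and at 0 in the other 4 libraries. The part of these tissues in the Ppargc1a values was not tested. Adrenal cortex genes summed to between 3.63 and 5.42 CPM in CePPy and between 4.87 and 6.26 CPM in vehicle over 8 genes, with Cyp11b2, Cyp21a1 and Nr5a1 at 0. Macrophage genes summed to between 221 and 243 CPM in CePPy and between 231 and 277 CPM in vehicle, and endothelial genes to between 567 and 594 CPM in CePPy and between 563 and 628 CPM in vehicle. Neutrophil genes had lower values in each CePPy library, with sums of 9.68, 22.4 and 15.97 CPM in CePPy and 33.4, 49.5 and 50.1 CPM in vehicle, and Mpo and Elane at 0.

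Genes listed here as PPAR targets had values on both sides. Of 45 such genes, all measured, edgeR called 0 at an adjusted p under 0.05, while 7 were higher and 8 lower at an unadjusted p under 0.05, or 33.3% of the list beside 19.0% of all genes. DESeq2 called 2 higher and 6 lower, beside 3.27% and 3.08% of all genes. Limma-voom called 0, and with sample weights 4 lower, where it called 352 of all 15416 genes, 204 of them lower. The median log2 fold change was 0.0086, beside 0.0030 over all genes tested. Acot1, an acyl-CoA thioesterase of the cytosol, measured 29.99, 26.9 and 31.8 CPM in CePPy and 119.7, 63.3 and 86.7 CPM in vehicle, or -1.60 as log2 fold change (SE 0.21; adjusted p by edgeR 0.0739). Its mitochondrial relative Acot2 stood at -1.07 on the log2 scale (SE 0.18; adjusted p by edgeR 0.0813), and both genes separated the groups without overlap.

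The Cyp4a genes, whose enzymes hydroxylate fatty acids at their end, were split. Cyp4a12a and Cyp4a12b had negative log2 fold changes, and Cyp4a10, Cyp4a14, Cyp4a31 (0.31) and Cyp4a32 (1.01) positive ones. Cyp4a12a, a form of the male mouse kidney, measured 72.8, 79.1 and 72.3 CPM in CePPy and 111.9, 119.6 and 105.4 CPM in vehicle (log2 fold change -0.59 with an SE of 0.08; adjusted p by edgeR 0.0739). Cyp4a12b stood at -0.96 (SE 0.19; adjusted p by edgeR 0.1001). Cyp4a14, a classical target of PPARalpha, measured 438, 395 and 309.7 CPM in CePPy and 213, 254 and 150.2 CPM in vehicle, or 0.89 as log2 fold change (SE 0.20; adjusted p by edgeR 0.112). Cyp4a10, named after its values were seen as the other gene that DESeq2 called higher, stood at 0.64 (SE 0.20, DESeq2 adjusted p = 0.0242). Plin2, which coats lipid droplets, at -0.81 (SE 0.21, DESeq2 adjusted p = 0.00302) and Cpt1a, which brings fatty acids into mitochondria, at -0.45 (SE 0.13, DESeq2 adjusted p = 0.0277) were also named after their values were seen, and complete the 6 that DESeq2 called lower. Acot1 and Acot2, and some of the Cyp4a genes, such as Cyp4a12a and Cyp4a12b, are close copies whose reads may have been shared in counting. Cyp4a12a and Cyp4a12b thus had lower values, and Cyp4a14 higher ones, in each CePPy library than in each vehicle library.

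Genes that ERRs and PGC-1 coactivators are known to drive leaned toward higher values by a small amount. Most belong to the respiratory chain or the citric acid cycle. The list also holds others, such as Perm1, Mdh1, Mfn2, Slc25a4, Vdac1 and Sod2. Of 46 genes, all measured, 40 had higher values, beside 7781 of all 15416 genes. The median log2 fold change was 0.14, beside 0.0030 over all genes tested. These genes share regulators, so the 40 are not separate observations. By edgeR 0 were called, with 4 higher and 0 lower at an unadjusted p under 0.05. That is 8.70% of the list, below the 19.0% of all genes. DESeq2 called 1, Mdh1, and both limma-voom fits called 0. Perm1, a muscle coregulator that PGC-1 and ERRs induce, was scarce, at 2.62, 1.09 and 1.57 CPM in CePPy and 0.557, 0.942 and 0.654 CPM in vehicle (log2 fold change 1.29 with an SE of 0.43; adjusted p by edgeR 0.173). Mdh1, the cytosolic malate dehydrogenase, averaged 832 ± 259 CPM in CePPy and 548 ± 23.2 CPM in vehicle (SD, n = 3 each), a log2 fold change of 0.60 with an edgeR adjusted p of 0.182. Sdha and Sdhb, for subunits of succinate dehydrogenase, had log2 fold changes of 0.33 and 0.32, with edgeR adjusted p values of 0.236 and 0.291. The mean list level was 0.39, -0.07 and 0.12 in CePPy 1, 2 and 3, so CePPy 2 lay below the vehicle mean. The proximal tubule markers, at 0.90, 0.06 and 0.53, had the same order of libraries, and their part in the list level was not tested.

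**Figure D5:**
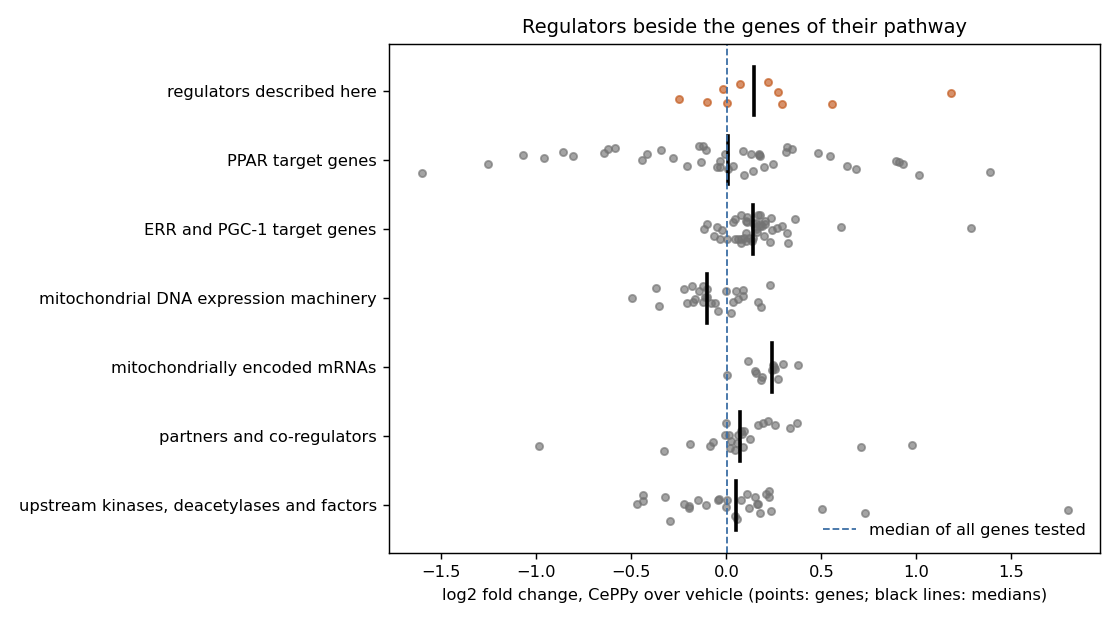
Log2 fold change of CePPy over vehicle (horizontal axis) for every gene of the regulator set and of 6 pathway lists; each point is a gene, black lines are list medians and the dashed line is the median of all genes tested. PPAR target genes reach from -1.60 to 1.39 around a median of 0.0086, whereas mitochondrially encoded mRNAs lie between 0.0040 and 0.38.

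A list of nuclear genes for mitochondrial DNA expression and protein import, in part known NRF1 targets, did not share that lean. Beside genes that copy and transcribe mitochondrial DNA, it holds the import genes Tomm20, Tomm22, Tomm40, Tomm70a and Timm23. It also holds the protease gene Lonp1 and the chaperone gene Hspa9. Among 27 genes, 17 had lower values, the median log2 fold change was -0.10, and edgeR called 0. Without overlap between the groups, 8 genes were lower and 1 higher, or 33.3% of the list beside 26.3% of all genes. Averaged over the 27 genes, log2 values against vehicle were -0.070, -0.096 and -0.071 for CePPy 1, 2 and 3. Vehicle 1, 2 and 3 stood at 0.0011, 0.015 and -0.016, so every CePPy library lay below every vehicle library by a small amount. This separation was not tested. At an unadjusted p under 0.05, 1 was higher and 3 lower, or 14.8% of the list beside 19.0% of all genes, while DESeq2 and limma-voom with sample weights each called 1 lower and limma-voom 0. That gene was Tomm20, the import receptor of the outer membrane, at 178.8, 159.3 and 173.4 CPM in CePPy and 229, 213.7 and 218.0 CPM in vehicle. The CePPy libraries all lay below the vehicle libraries (log2 fold change -0.37 with an SE of 0.08; adjusted p by edgeR 0.109). The import channels Tomm40 and Timm23 and the matrix protease Lonp1 stood at -0.22, -0.36 and -0.17, and Gabpb2, a subunit of nuclear respiratory factor 2, at 0.23, each with an edgeR adjusted p of at least 0.196.

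The 13 mRNAs encoded by mitochondrial DNA, whose transcription TFAM and TFB2M start, had higher values without exception, with a median log2 fold change of 0.24. None was called by edgeR, DESeq2 or either limma-voom fit, and mt-Nd4l alone had an unadjusted edgeR p under 0.05, or 7.69% of the list beside 19.0% of all genes. Its log2 fold change was 0.38 (SE 0.14; adjusted p by edgeR 0.210). The complex I genes mt-Nd4, mt-Nd5 and mt-Nd6 stood at 0.30, 0.27 and 0.26 and the ATP synthase gene mt-Atp8 at 0.25. The mean level of the 13 was 0.33, 0.14 and 0.19 in CePPy and -0.09, -0.16 and 0.26 in vehicle, so vehicle 3 lay above CePPy 2 and CePPy 3. These mRNAs come from shared precursor transcripts and are not separate observations.

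Partners of the regulators differed by a small amount at the median, but their log2 fold changes ranged from -0.99 to 0.98. Of 26 receptors, coactivators and corepressors, edgeR and both limma-voom fits called 0, and the median log2 fold change was 0.070. At an unadjusted p under 0.05, 3 were higher and 0 lower, or 11.5% of the list beside 19.0% of all genes. DESeq2, which called 3.27% of all genes higher, called 1 of the list, Lpin1, for lipin 1, which amplifies PGC-1alpha signals and makes diacylglycerol. Lpin1 measured 50.2, 29.1 and 49.6 CPM in CePPy and 23.4, 25.04 and 30.5 CPM in vehicle. CePPy 1 and 3 were high, as they were for Ppargc1a, and CePPy 2 lay within the vehicle range (log2 fold change 0.71 with an SE of 0.21; adjusted p by edgeR 0.152). The acetyltransferase gene Ep300 and the coactivator gene Ncoa1 stood at 0.22 and 0.19, the corepressor gene Mybbp1a at -0.33, and the scarce Nr0b2, for a receptor that represses others, at 0.98, with edgeR adjusted p values between 0.178 and 0.327.

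Of 30 kinases, deacetylases and factors that act on PGC-1alpha or its gene, edgeR and both limma-voom fits called 0, and the median log2 fold change was 0.053. At an unadjusted p under 0.05, 4 were higher and 3 lower, or 23.3% of the list beside 19.0% of all genes. DESeq2 called 2 lower, Mef2d and Prkab1, beside 3.08% of all genes. Mef2d, one of the MEF2 factors that switch on Ppargc1a in muscle, measured 62.4, 71.3 and 66.2 CPM in CePPy and 83.5, 81.2 and 80.7 CPM in vehicle (log2 fold change -0.30 with an SE of 0.08; adjusted p by edgeR 0.128). Prkab1, a subunit of the energy sensor AMPK, stood at -0.44 (SE 0.13; adjusted p by edgeR 0.150), and Prkag3, another subunit, at 0.73 (SE 0.24; adjusted p by edgeR 0.169). The transcription factor gene Foxo3 stood at 0.21 and the calcineurin gene Ppp3ca at 0.22. Sirt3, the mitochondrial deacetylase, at 0.50 and Tnfrsf12a, the TWEAK receptor, at -0.47 complete the 7 and were named after their values were seen.

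The genes most like Ppargc1a across the 6 libraries, out of 11092 annotated genes averaging 5 CPM or more, were Dbp, Thra, Bbs1, Vill and Agtpbp1, with Pearson r between 0.985 and 0.996 on log2 CPM. Dbp, a transcription factor that follows the circadian clock, averaged 74.1 ± 10.9 CPM in CePPy and 49.3 ± 7.25 CPM in vehicle (SD, n = 3 each). Thra, for thyroid hormone receptor alpha, averaged 30.1 ± 1.48 CPM in CePPy and 27.3 ± 1.05 CPM in vehicle (SD, n = 3 each), a far smaller difference. Those most like Esrra were Qdpr, Ndufa9, Ces2e, Tmco3 and Mpst, with r between 0.989 and 0.995, and Ndufa9 is a respiratory complex I subunit from the list of ERR targets. Among the regulators, Ppargc1a had an r of 0.94 with Esrrb, 0.81 with Esrrg, 0.61 with Esrra, 0.41 with Ppara and -0.43 with Ppargc1b. All of these rest on 6 libraries in 2 groups. Depth and tubule markers also differed between these libraries, and their part in the correlations was not tested.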

How the data were processed

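Messenger RNA of mouse kidneys was sequenced in 6 libraries after TRIzol extraction and library preparation with a dual-mode mRNA kit, per the labels' protocols. The authors deposited whole-number read counts per gene, not normalized. The submitters' processing notes name TopHat2, Cufflinks, DESeq and the build GRCm38 without versions, while the sources used here give neither the counting program nor its use of strand. Groups and replicate numbers came from the sample titles.

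Genes were filtered with filterByExpr, libraries scaled by TMM and the groups set against each other in the quasi-likelihood test of edgeR 4.0.16 (R 4.3.3; 4 residual degrees of freedom), adjusted by Benjamini-Hochberg over 15416 genes. Alternatives were RLE scaling, no filter, DESeq2 1.42.0, limma-voom (limma 3.58.1) with and without sample weights, a replicate block, and each library left out in turn. Within groups, libraries differed by more than sampling noise. Coordinates and exon lengths are from GENCODE M21. From each pathway list the 5 genes with the lowest p are named, except 1 that is not reported here. Members and lists were chosen with earlier results of these data known, and promoter motifs after the windows were seen. Log2 levels of single libraries use a prior count of 2. Intervals are 95% confidence intervals of the difference between groups, with the SE of the edgeR test, which reflects the spread between libraries. A count of 1 read is 0.0267 to 0.0336 CPM before TMM scaling.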

Additional observations from a re-analysis of the deposited data

How the results depend on the processing

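The fold changes of Ppargc1a and Esrrb kept their direction under every alternative run, and their edgeR calls turned on single libraries and on the tool. With one library left out, the log2 fold change ranged from 0.45 to 0.68 for Ppargc1a and from 0.87 to 1.44 for Esrrb. With DESeq2 they were 0.56 and 1.19, both called. The number of regulators called was 2 with DESeq2, 0 to 2 with a library left out and 0 otherwise. Over all genes the edgeR count of 1 became 63 without the filter, 981 with DESeq2, 352 with limma-voom and sample weights, 0 with the replicate block and 0 to 811 with a library left out, where 811 is without CePPy 2, as is the highest count of each list given here. Among PPAR targets the calls were 3 without the filter, 8 with DESeq2, 4 with sample weights and 0 to 7 with a library left out. DESeq2 called 1 ERR and PGC-1 target, 1 gene of the list of mitochondrial DNA expression and import, 1 partner and 2 upstream genes. Sample weights called 1 gene of the list of mitochondrial DNA expression and import, and in both fits it was the import gene Tomm20. With a library left out, the ERR and PGC-1 targets called ranged from 0 to 2, the partners from 0 to 1 and the upstream genes from 0 to 3. The log2 ratio of Ppargc1a to Ppargc1b differed by 0.49 to 1.08 with a library left out, and that of Esrrg to Esrra by -0.061 to 0.10. Values near 0 changed sign: Ppard to 0.019 without CePPy 3 and 0.0042 without vehicle 2, Nrf1 to 0.025 without vehicle 2 (-0.17 to 0.025 over the libraries left out), and Tfb2m to -0.019 with sample weights, -0.024 without CePPy 1 and -0.062 without vehicle 2, with 0.050 as its highest value. The cause was not tested. Same-numbered libraries correlated at -0.15, 0.098 and -0.021 in their deviations from the group means, and libraries of different number at -0.15 to 0.18. Replicate numbers thus showed no pairing, though so few pairs cannot exclude one. With the replicate block the ratio differences were 0.78 and -0.0019 by construction, since pairing cannot change a difference in means. They are thus no check of stability. For Ppargc1a to Ppargc1b the two-sided exact permutation p within pairs was 0.5. Read depth limits Ppargc1b most, with as few as 68 reads in a library.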

Other observations

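Promoter windows of other regulators held motifs of known mitochondrial and muscle factors. The window at one annotated start of Esrrg holds a MEF2 element starting 22 bases before the start, and 0.164% of all 32851 windows hold it on either strand, or 0.104% of the windows of genes tested. The Tfam window holds CCGGAAGT, an element of the ETS factor GABP, starting 47 bases before the start, as do 3.89% of all windows and 7.12% of those of genes tested. The Ppara window holds GCATGCGC, the NRF1 core, on both strands in overlapping positions 29 and 31 bases before the start. Ppara and Tfam both overlapped between CePPy and vehicle. The motifs were chosen after the windows were seen, so these shares do not show how unusual a match is. These are matches of letters in the window, and no binding was measured.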
